A study of Homo sapiens with 6 samples.

Results

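Interferon response genes, the genes that cells switch on when they sense interferon, were followed across U87MG glioblastoma cells carrying the hairpins sh50, sh52 or shGFP. A list of 41 such genes was named, and 38 of them had a transcript cluster annotated to that gene alone, out of 22411 genes with a cluster of their own. Each of the 38 had a single such cluster. IRF9 was annotated only together with RNF31, TRIM22 only together with OR56B1, and STAT2 matched no cluster, so these 3 genes were not analysed here.

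U87MG is an established human glioblastoma line. The cells were infected with lentivirus carrying a short hairpin RNA, drug-selected, and grown for 5 days below confluence before total RNA was taken, and each sample was hybridised to an Affymetrix HTA-2_0 array. The groups were sh50, sh52 and the control hairpin shGFP, with 2 arrays each, numbered replicate 1 and replicate 2. The series is titled for genes regulated by SAT1, the enzyme that acetylates spermidine and spermine, so sh50 and sh52 are read as hairpins meant for SAT1, although the labels state no target for either. All 3 groups had therefore been through infection and selection, and no uninfected cells were among the samples analysed. Nothing in the labels says that the replicates of a hairpin were infected or cultured apart, and the error here may be that of repeated handling of 1 culture.

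Interferons of type I bind the receptor of IFNAR1 and IFNAR2, which activates the kinases JAK1 and TYK2. These phosphorylate STAT2, which acts in a complex with IRF9 that binds the interferon-stimulated response element, a paired GAAA motif in the promoters of the response genes. The products block virus entry, detect or destroy foreign RNA, halt translation, or tag proteins with the ubiquitin-like ISG15. In astrocytes and glioma cells, as in most cells, the same genes can also be held at a low level without added interferon.

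The response element was looked for in RefSeq promoter windows on GRCh38.p14, running from 250 bases before to 50 bases after each gene's start, as GAAA, any 2 bases and GAAA again, or in reverse complement as TTTC, any 2 bases and TTTC. It was found in 25 of the 34 named genes that had a window, or 73.5%, against 3.57% of all 35116 windows and 4.38% of all 27305 genes. Among the 32 measured genes with a window, 25 held the motif, and CMPK2, HERC6, IFI35, IRF1, OAS1, SAMD9L and XAF1 did not. The shorter STAT-dimer motif TTCNNNGAA was found in 12 of the 34 genes, against 9.38% of all genes. A match is a string of letters in the window and not a shown binding site. The windows of IFI6, IFITM3 and PARP14 are shown because these are the 3 motif-bearing genes with the largest hairpin differences upward. That of DTX3L was added after its values were seen, because it stands out between replicates. Each run covers 170 bases before to 10 bases from the start, 5′ to 3′ on the gene's strand, with the matches in capitals. IFI6 lies at chr1:27672183-27672362 on the minus strand and has 3 matches. IFITM3 lies at chr11:320851-321030 on the minus strand and has 2. PARP14 lies at chr3:122680669-122680848 and DTX3L at chr3:122564168-122564347, both on the plus strand with 1 match each.
IFI6: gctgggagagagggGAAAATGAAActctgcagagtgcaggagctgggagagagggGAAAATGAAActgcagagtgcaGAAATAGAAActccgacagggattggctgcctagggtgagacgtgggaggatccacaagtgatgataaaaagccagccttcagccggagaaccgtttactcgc
IFITM3: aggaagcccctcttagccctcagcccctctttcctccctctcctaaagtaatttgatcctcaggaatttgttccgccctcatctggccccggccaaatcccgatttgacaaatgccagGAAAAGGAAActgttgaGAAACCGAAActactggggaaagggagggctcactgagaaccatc
PARP14: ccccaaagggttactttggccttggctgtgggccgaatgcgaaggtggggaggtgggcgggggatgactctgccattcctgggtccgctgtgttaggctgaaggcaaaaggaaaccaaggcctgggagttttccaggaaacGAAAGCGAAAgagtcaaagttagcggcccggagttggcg
DTX3L: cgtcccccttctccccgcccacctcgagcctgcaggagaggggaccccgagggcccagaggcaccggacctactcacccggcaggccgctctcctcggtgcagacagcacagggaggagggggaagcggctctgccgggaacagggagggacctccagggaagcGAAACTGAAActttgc
The match of DTX3L, at chr3:122564332-122564341, also lies in the window of PARP9, which is transcribed from the opposite strand. The median log2 difference of both hairpins from shGFP was 0.14 for the 25 measured genes with it and 0.14 for the 7 without it.

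Deposited values are given as log2 throughout, replicate 1 before replicate 2, and the base of the logarithm was taken as 2. SAT1 itself stood at 9.36 and 8.35 on the sh50 arrays, at 10.83 and 7.84 on the sh52 arrays, and at 9.45 and 8.96 on the shGFP arrays. The array labelled sh52 replicate 1 thus had more SAT1 signal than either shGFP array, against its label, and sh50 replicate 1 lay between the shGFP arrays. In the limma fit SAT1 differed from shGFP by -0.11 ± 0.83 (SE) for both hairpins together, with an adjusted p of 0.986. Every direction drawn from sh52 below is therefore drawn from arrays labelled sh52. Values without the array labelled sh52 replicate 1 stand beside many of the results but not all. Of 10 markers of the U87MG line, 9 lay above 3.98, the median of all 67528 transcript clusters, and the median of the 10 was 14.38. All 4 plasmacytoid and dendritic cell markers and all 3 endothelial markers lay below it, and 2 of 5 epithelial markers and 1 of 5 neuronal and oligodendrocyte markers were above it. Of 10 blood and immune markers 2 were above it, CD68 and NKG7, and the median of that list was 3.37. CD68 was far above it, between 15.34 and 15.85 on the 6 arrays, and NKG7 was between 4.10 and 4.49. The median of all clusters was between 3.92 and 4.07 on the 6 arrays.

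**Figure D1:**
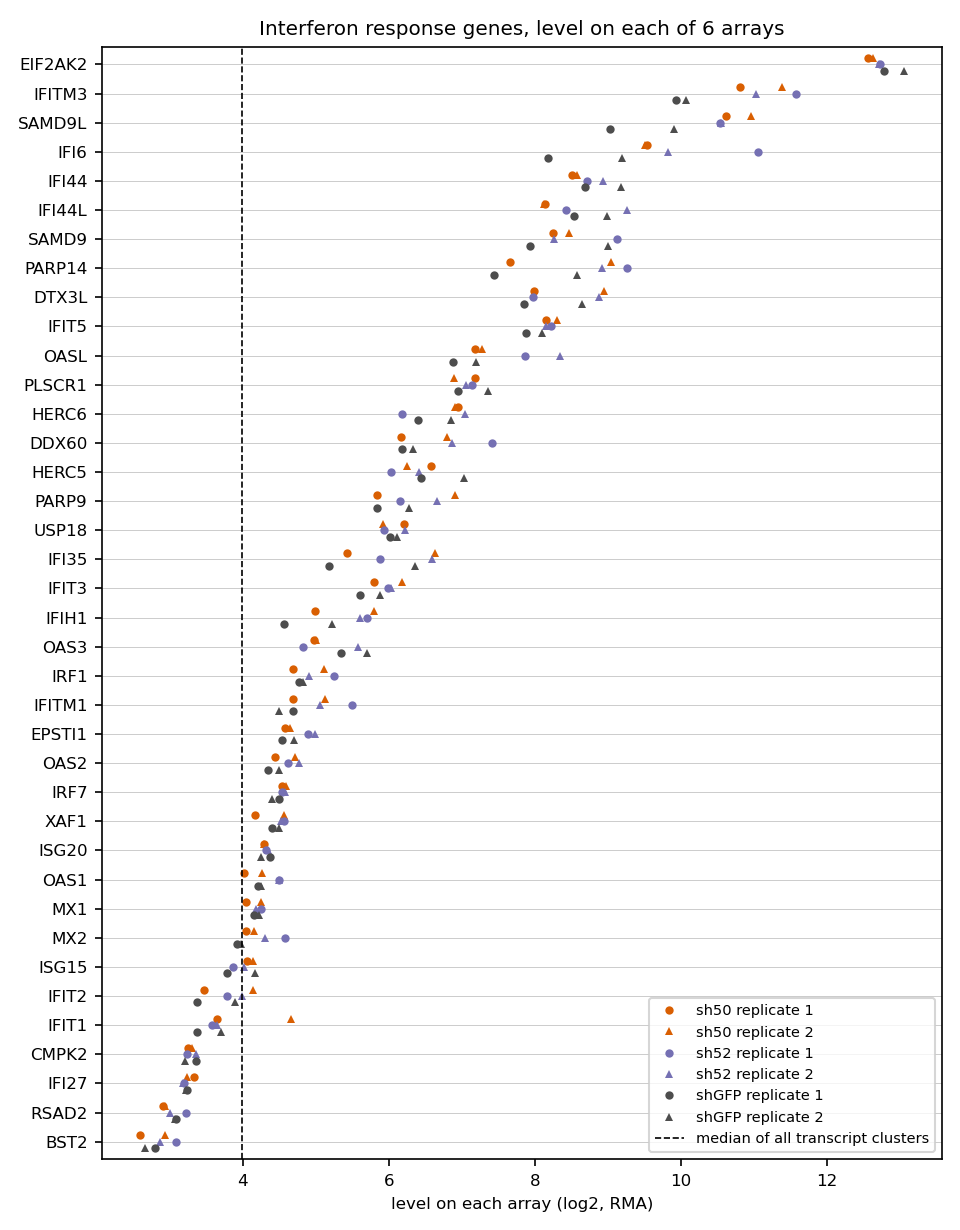
Deposited log2 value of each of the 38 genes on each of the 6 arrays, with 1 row per gene ordered by its mean for display and 1 point per array, coloured by hairpin. The dashed line is the median of all transcript clusters, 3.98, and 6 genes lie below it. Rows are not compared with each other, since probes differ in brightness.

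With the mean over 6 arrays at or above that median as the filter, 32 of the 38 genes were tested. IFIT1, IFIT2, CMPK2, IFI27, RSAD2 and BST2 were below it and have values but no test. MX2 and ISG15 passed although their shGFP means, 3.95 and 3.98, were under the line. MX2 passed through the arrays of both hairpins and ISG15 through those of sh50, so their tests are not read as support. RSAD2, the antiviral enzyme viperin, lay between 2.91 and 3.23 on all arrays, and BST2, the tetherin that holds budding virus at the cell surface, between 2.60 and 3.09. MX1, a dynamin-like GTPase commonly used to mark an interferon response, lay between 4.05 and 4.25. EIF2AK2, the double-stranded RNA-activated kinase PKR, lay between 12.57 and 13.05. Arrays cannot order these genes by abundance, and each is compared only with itself from here on.

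The first question was whether the genes differed between cells with either hairpin and cells with shGFP. Taking sh50 and sh52 with equal weight, as the mean of both hairpins, 29 of the 38 genes had an estimate above 0, or 76.3%, against 51.6% of all named genes, and the median difference was 0.15, against 0.01 over all named genes. Without shGFP replicate 1 the genes above 0 numbered 22 of 38, with a median of 0.07. Without shGFP replicate 2 they numbered 30, with a median of 0.26. Of the 33764 clusters tested, 15094 and 18679 were then above 0. No gene passed the test. Of the 32 tested genes 0 had an adjusted p at or under 0.05 by limma with Benjamini-Hochberg adjustment, which was also so for 0.0% of all 33764 clusters tested. At an unadjusted p of 0.05 the higher genes numbered 4 of 32, namely IFI6, IFITM3, OASL and SAMD9L, against 4.35% of all clusters tested, and the lower ones 0 of 32, against 4.83%. In 6 of the 38 genes all 4 hairpin arrays lay above both shGFP arrays (IFIT5, MX2, IFI6, IRF7, SAMD9L and IFITM3), against 8.09% of all transcript clusters and 9.24% of named genes. In 1 gene, EIF2AK2, all 4 lay below both, against 7.65% and 9.25%. Without the array labelled sh52 replicate 1 these counts were 7 and 2, against 12.6% and 12.8% of named genes, and without shGFP replicate 1 they were 9 and 6, against 21.5% and 20.7%. Without sh50 replicate 1 the counts were 17 and 2, against 15.8% and 12.2%, and without shGFP replicate 2 they were 19 and 3, against 20.6% and 20.9%. Without sh52 replicate 2 there were 6 and 3, against 11.6% and 12.9%, and without sh50 replicate 2 there were 6 and 1, against 11.4% and 11.3%.

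Some cell type markers also had higher values on the hairpin arrays. SNAP25, the 1 neuronal marker above the median level, stood at 8.82 and 9.23 on the sh50 arrays and at 9.78 and 9.62 on the sh52 arrays, against 7.35 and 8.37 on the shGFP arrays, a difference of 1.50 ± 0.31 (adjusted p = 0.456, limma). Among the U87MG markers, FN1 differed by 1.12 ± 0.18 and SPARC by 1.05 ± 0.25, each with all 4 hairpin arrays above both shGFP arrays. VIM went the other way, at -0.32 ± 0.16, with all 4 hairpin arrays below both shGFP arrays. Of the 10 U87MG markers 6 were above 0, with a median of 0.15. The other neuronal and oligodendrocyte markers were below the median level. The part of these markers in the differences of the interferon response genes was not tested.

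IFITM3, a membrane protein that stops viruses from fusing with endosomes, stood at 10.81 and 11.38 on the sh50 arrays and at 11.57 and 11.03 on the sh52 arrays, against 9.93 and 10.07 on the shGFP arrays. The 2 shGFP arrays were the lowest of the 6 and close together. The difference of both hairpins from shGFP was 1.20 ± 0.24 (SE), with a 95% interval of 0.60 to 1.79, which is 2.29-fold (adjusted p = 0.456, limma). It was 1.06 without the array labelled sh52 replicate 1. IFITM1, its neighbour on chromosome 11 with a similar role at the cell surface, stood at 4.68 and 5.13 on the sh50 arrays and at 5.50 and 5.05 on the sh52 arrays, against 4.69 and 4.50 on the shGFP arrays. The array sh50 replicate 1 overlapped the shGFP arrays, and the difference was 0.50 ± 0.21 (adjusted p = 0.551, limma). The genes of this family are similar in sequence, so signal that one gene's probes take from another's RNA cannot be told apart from its own.

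IFI6, a small antiviral protein of intracellular membranes, stood at 9.54 and 9.51 on the sh50 arrays and at 11.05 and 9.83 on the sh52 arrays, against 8.18 and 9.20 on the shGFP arrays. Every hairpin array was above both shGFP arrays, but the shGFP arrays themselves were 1.02 apart. Its difference was 1.29 ± 0.43 (SE), with a 95% interval of 0.23 to 2.36, or 2.45-fold (adjusted p = 0.498, limma). It came to 0.99 without the array labelled sh52 replicate 1, to 0.78 without shGFP replicate 1, and to 1.80 without shGFP replicate 2.

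SAMD9L, a restriction factor that can shut down translation and slows cell growth, stood at 10.62 and 10.96 on the sh50 arrays and at 10.53 and 10.56 on the sh52 arrays, against 9.02 and 9.90 on the shGFP arrays. The 4 hairpin arrays spanned less than the 2 shGFP arrays did. The difference was 1.20 ± 0.27 (SE), or 2.30-fold (adjusted p = 0.456, limma), and it was 1.21 without the array labelled sh52 replicate 1. Without shGFP replicate 1 it came to 0.76, and without shGFP replicate 2 to 1.64. Its paralogue and neighbour on chromosome 7, SAMD9, averaged 8.36 ± 0.15 on the sh50 arrays and 8.70 ± 0.61 on the sh52 arrays, against 8.46 ± 0.76 on the shGFP arrays (SD, n = 2 each). Its groups overlapped, and its difference was 0.06 ± 0.38 (SE).

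**Figure D2:**
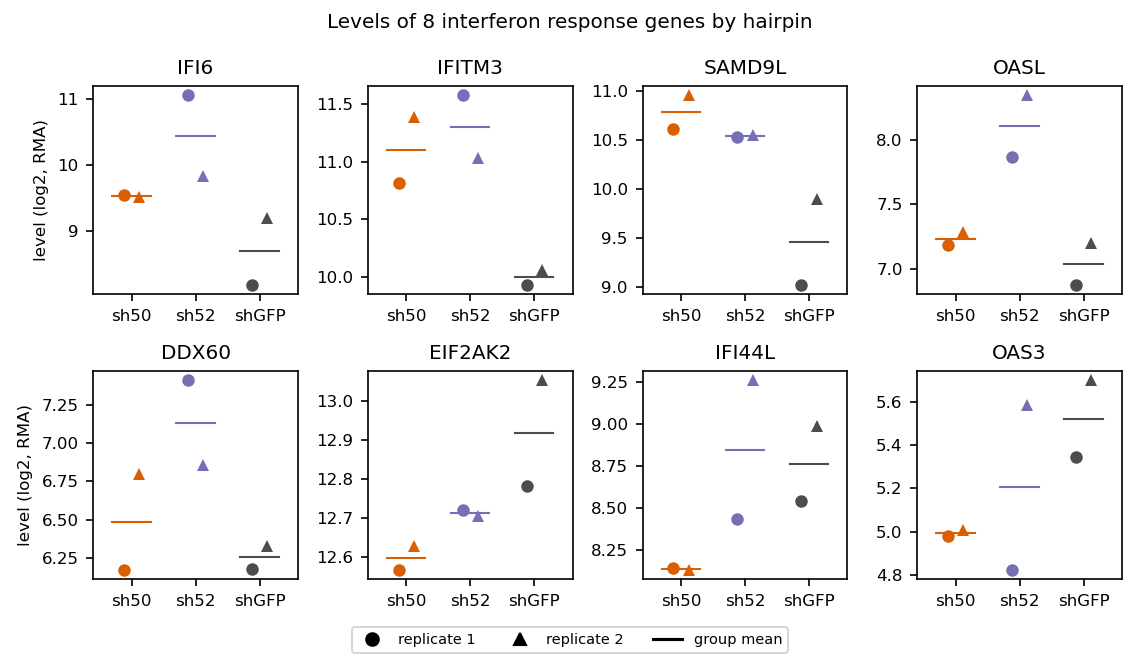
Deposited log2 values of 8 genes, with 1 panel per gene, the hairpins sh50, sh52 and shGFP from left to right and 1 point per array. IFI6, IFITM3 and SAMD9L have all 4 hairpin arrays above both shGFP arrays, EIF2AK2 has all 4 below, and OASL, DDX60, IFI44L and OAS3 overlap.

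The genes that detect or handle foreign RNA had estimates in both directions. OASL, a relative of the oligoadenylate synthetases that boosts signalling from the RNA sensor RIG-I, stood at 7.18 and 7.28 on the sh50 arrays and at 7.86 and 8.35 on the sh52 arrays, against 6.88 and 7.20 on the shGFP arrays. Only its sh52 arrays were clear of shGFP, and the difference of both hairpins was 0.63 ± 0.20 (adjusted p = 0.476, limma). IFIH1, the sensor MDA5 for long double-stranded RNA, stood at 5.00 and 5.80 on the sh50 arrays and at 5.71 and 5.60 on the sh52 arrays, against 4.57 and 5.22 on the shGFP arrays, a difference of 0.63 ± 0.30 that came to 0.30 without shGFP replicate 1 and to 0.96 without shGFP replicate 2. DDX60, a helicase linked to RNA sensing, stood at 6.17 and 6.80 on the sh50 arrays and at 7.41 and 6.86 on the sh52 arrays, against 6.18 and 6.33 on the shGFP arrays. Both genes overlapped between sh50 and shGFP, and the DDX60 difference was 0.56 ± 0.25 (adjusted p = 0.573, limma).

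OAS3, one of the synthetases whose product activates RNase L, went with the lower estimates. It stood at 4.98 and 5.01 on the sh50 arrays and at 4.82 and 5.58 on the sh52 arrays, against 5.34 and 5.70 on the shGFP arrays, a difference of -0.42 ± 0.25 (adjusted p = 0.682, limma). This was -0.23 without the array labelled sh52 replicate 1, -0.25 without shGFP replicate 2 and -0.61 without sh52 replicate 2. Its neighbours on chromosome 12 were at 0.09 ± 0.14 for OAS1 and 0.21 ± 0.15 for OAS2. EIF2AK2, the kinase PKR that blocks translation when it binds double-stranded RNA, stood at 12.57 and 12.63 on the sh50 arrays and at 12.72 and 12.71 on the sh52 arrays, against 12.78 and 13.05 on the shGFP arrays. This was the single gene with all hairpin arrays below both shGFP arrays, and the difference was small, -0.26 ± 0.14 (adjusted p = 0.647, limma). It was -0.13 without shGFP replicate 2 and -0.40 without shGFP replicate 1.

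IFI44L and IFI44 lie side by side on chromosome 1. IFI44L stood at 8.14 and 8.13 on the sh50 arrays and at 8.43 and 9.26 on the sh52 arrays, against 8.54 and 8.99 on the shGFP arrays, a difference of -0.27 ± 0.27. IFI44 stood at 8.50 and 8.57 on the sh50 arrays and at 8.71 and 8.93 on the sh52 arrays, against 8.69 and 9.18 on the shGFP arrays, a difference of -0.25 ± 0.19. Both had their sh50 arrays below the shGFP arrays while the sh52 arrays overlapped them. The IFI44L difference was -0.07 when the array labelled sh52 replicate 1 was left out, -0.05 without shGFP replicate 2, -0.48 without sh52 replicate 2 and -0.50 without shGFP replicate 1. For IFI44 it was -0.01 without shGFP replicate 2 and -0.50 without shGFP replicate 1.

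ISG15, the ubiquitin-like tag, stood at 4.05 and 4.14 on the sh50 arrays and at 3.87 and 4.02 on the sh52 arrays, against 3.79 and 4.16 on the shGFP arrays, and its groups overlapped. HERC5, the ligase that attaches it, stood at 6.57 and 6.25 on the sh50 arrays and at 6.03 and 6.41 on the sh52 arrays, against 6.44 and 7.03 on the shGFP arrays. Both sh52 arrays of HERC5 were below both shGFP arrays, while sh50 overlapped them. The HERC5 difference was -0.42 ± 0.24 (adjusted p = 0.665, limma), and it was -0.32 without the array labelled sh52 replicate 1. It came to -0.72 without shGFP replicate 1 and to -0.12 without shGFP replicate 2. USP18, which removes ISG15 and also damps the receptor, differed by 0.01 ± 0.16, with a 95% interval of -0.40 to 0.41.

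PARP14, an ADP-ribosyltransferase, had a large estimate with a wide error. It stood at 7.65 and 9.05 on the sh50 arrays and at 9.26 and 8.92 on the sh52 arrays, against 7.44 and 8.58 on the shGFP arrays, which gave 0.71 ± 0.49 (adjusted p = 0.738, limma). Leaving out shGFP replicate 1 brought this to 0.13, leaving out sh50 replicate 2 to 0.36, and leaving out shGFP replicate 2 to 1.28. MX2, a GTPase that blocks virus entry into the nucleus, stood at 4.05 and 4.16 on the sh50 arrays and at 4.58 and 4.31 on the sh52 arrays, against 3.93 and 3.98 on the shGFP arrays. All 4 hairpin arrays were above both shGFP arrays by a small margin, with a difference of 0.32, and since its shGFP mean was under the filter no test is read from it. Its neighbour MX1 stood at 4.05 and 4.25 on the sh50 arrays and at 4.24 and 4.18 on the sh52 arrays, against 4.15 and 4.22 on the shGFP arrays, with a 95% interval of the difference of -0.34 to 0.33. PLSCR1, a membrane lipid scramblase with antiviral activity, stood at 7.17 and 6.90 on the sh50 arrays and at 7.14 and 7.06 on the sh52 arrays, against 6.95 and 7.36 on the shGFP arrays. Neither MX1 nor PLSCR1 separated the groups. RSAD2 stood at 2.91 and 2.94 on the sh50 arrays and at 3.23 and 3.01 on the sh52 arrays, against 3.09 and 3.08 on the shGFP arrays.

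The IFIT genes encode proteins that bind the ends of foreign RNA. IFIT5 differed by 0.22 ± 0.14 and IFIT3 by 0.26 ± 0.17, and all 4 hairpin arrays of IFIT5 lay above both shGFP arrays. IFIT1, below the filter, stood at 3.64 and 4.67 on the sh50 arrays and at 3.59 and 3.65 on the sh52 arrays, against 3.37 and 3.71 on the shGFP arrays, so its one clear departure was on sh50 replicate 2. The transcription factors IRF1 and IRF7 differed by 0.20 ± 0.19 and 0.12 ± 0.13. Of the other tested genes, the exonuclease ISG20 and the cell death factor XAF1 differed by 0.01 each, HERC6 by 0.14 and EPSTI1 by 0.16. Of the untested ones, IFIT2 differed by 0.21 and BST2 by 0.14.

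**Figure D3:**
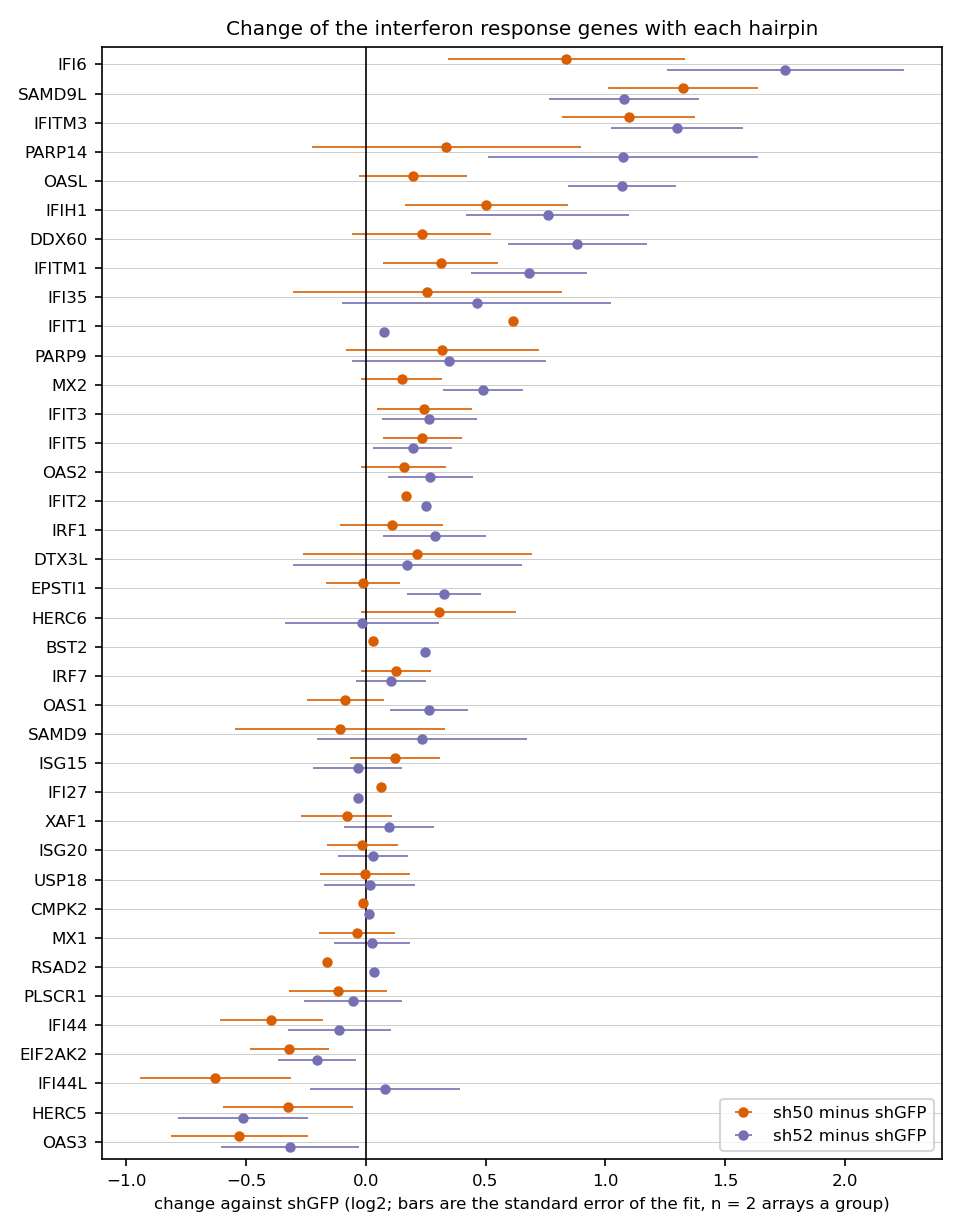
Log2 difference from shGFP of sh50 and of sh52 for each of the 38 genes, with standard errors from the limma fit for the 32 tested genes and none for the 6 untested ones. IFI6, IFITM3 and SAMD9L are above 0.8 for each hairpin, and OAS3, HERC5 and EIF2AK2 are below 0 for each.

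Set against shGFP 1 hairpin at a time, the 2 hairpins gave unequal counts, and they share the shGFP arrays. For sh50, 23 of 38 estimates were above 0, against 46.8% of named genes, and the median was 0.12. The number above 0 was 17 without sh50 replicate 2 and 28 without sh50 replicate 1. Of the 33764 clusters tested, 14218 and 18372 were then above 0. In 8 genes both sh50 arrays were above both shGFP arrays, against 15.9% of all clusters, and in 5 genes below, against 20.1%. These counts were 25 and 8 without sh50 replicate 1, against 37.9% and 32.5% of named genes, and 9 and 11 without sh50 replicate 2, against 27.9% and 41.2%. They were 21 and 7 without shGFP replicate 2, against 33.9% and 38.3%, and 11 and 10 without shGFP replicate 1, against 31.9% and 35.5%. The 5 lower genes over all arrays were OAS3, IFI44, IFI44L, RSAD2 and EIF2AK2. SAMD9L, at 1.32 ± 0.31 (adjusted p = 0.475, limma), and IFITM3, at 1.10 ± 0.28, were the 2 of 32 at an unadjusted p of 0.05 or less on the higher side, against 4.06% of clusters tested, and on the lower side there were 0, against 4.19%.

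For sh52, 30 of 38 estimates were above 0, against 55.1% of named genes, and the median was 0.21. The number above 0 was 22 without shGFP replicate 1 and 32 without shGFP replicate 2. Of the 33764 clusters tested, 15586 and 18820 were then above 0. In 18 genes, or 47.4%, both sh52 arrays were above both shGFP arrays, against 22.9% of all clusters and 23.2% of named genes. In 3 genes (IFI27, HERC5 and EIF2AK2) both were below, against 14.9% of all clusters. These counts were 25 and 4 when the array labelled sh52 replicate 1 was left out, against 37.4% and 29.4% of named genes, and 21 and 7 without sh52 replicate 2, against 41.0% and 34.6%. They were 28 and 5 without shGFP replicate 2, against 36.3% and 30.7%, and 20 and 8 without shGFP replicate 1, against 40.2% and 31.4%. At an unadjusted p of 0.05 the higher genes numbered 7 of 32, against 4.27% of clusters tested: DDX60, IFI6, IFITM1, IFITM3, MX2, OASL and SAMD9L. Over the 30 genes whose shGFP mean was itself above the filter, which leaves out MX2, they numbered 6. IFI6 had the largest estimate, 1.75 ± 0.49 (adjusted p = 0.504, limma), followed by IFITM3 at 1.30 ± 0.28. On the lower side there were 0 of 32, against 4.51%. No adjusted p was at or under 0.05 for either hairpin, where the share over all clusters tested was 0.0%. Without the array labelled sh52 replicate 1, a single sh52 array was left, and IFI6 came to 1.14, IFITM3 to 1.03, SAMD9L to 1.09, DDX60 to 0.61, IFITM1 to 0.46, MX2 to 0.35 and OASL to 1.31.

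Compared directly, sh52 was above sh50 in 29 of 38 estimates, against 57.1% of named genes, with a median of 0.15. After each array was centred on its own median this was 22 of 38, so the count depends in part on the scale of the arrays. Of the 33764 clusters tested, 13764 were above 0 after centring, against 17596 before it. Without sh50 replicate 1 the genes above 0 were 18 of 38 with a median of -0.01, so the direction rests on that array. The tested clusters above 0 were then 15780. Both sh52 arrays were above both sh50 arrays in 11 genes, against 23.0% of all clusters, and below in 3 (ISG15, IFI27 and SAMD9L), against 12.4%. Without sh50 replicate 1 these counts were 13 and 14, against 34.1% and 31.4% of named genes, and without sh50 replicate 2 they were 26 and 5, against 43.3% and 26.8%. Without sh52 replicate 2 they were 17 and 10, against 41.6% and 33.1%. When the array labelled sh52 replicate 1 was left out they were 16 and 3, against 37.4% and 26.7%. The estimates above 0 then numbered 31 of 38, and 16991 of the 33764 clusters tested were above 0. OASL was the 1 gene of 32 with an unadjusted p at or under 0.05, against 2.96% of clusters on the higher side, and on the lower side there were 0, against 3.38%. Its 7.86 and 8.35 on the sh52 arrays, against 7.18 and 7.28 on the sh50 arrays, gave 0.87 ± 0.23 (adjusted p = 0.70, limma). It was 1.11 without the array labelled sh52 replicate 1 and 0.63 without sh52 replicate 2. IFI6 differed by 0.92 ± 0.49 and IFI44L by 0.71 ± 0.31, and IFITM3 by 0.20 ± 0.28 with a 95% interval of -0.49 to 0.89. No gene had an adjusted p at or under 0.05 here, against 0.0% of all clusters tested.

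The last comparison set replicate 1 against replicate 2 within each hairpin. It gave 31 of 38 estimates below 0 and 7 above, where 46.3% of named genes were above, and a median of -0.12, against -0.01 over named genes. In 13 genes, or 34.2%, replicate 1 was below replicate 2 under all 3 hairpins, against 15.0% of all clusters and 17.8% of named genes. They were IFIT1, IFIT2, IFIT3, ISG15, OAS2, OAS3, OASL, IFI35, IFI44, SAMD9L, PARP9, DTX3L and EPSTI1. In 1 gene, IFI27, replicate 1 was above under all 3, against 12.1% of all clusters. Of the 32 tested genes 0 had an adjusted p at or under 0.05 by limma, where 9 of all 33764 clusters did, or 0.0267%. On the lower side 3 of the 32, or 9.4%, had an unadjusted p at or under 0.05, against 6.34% of clusters tested. On the higher side there were 0, against 4.01%. SAT1 differed in the other direction, by 1.50 ± 0.50 (adjusted p = 0.424, limma), with replicate 1 above replicate 2 under all 3 hairpins, and its part in these differences was not tested.

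The 3 genes were IFI35, DTX3L and PARP9, and their number is not read as an excess over all clusters. PARP9, a macrodomain protein, and DTX3L, a ubiquitin ligase, form a complex and are neighbours on chromosome 3. DTX3L stood at 7.99 and 8.95 on the sh50 arrays, at 7.98 and 8.88 on the sh52 arrays and at 7.86 and 8.65 on the shGFP arrays. The 3 replicate 1 values lay within 0.13 of each other, and the replicate difference was -0.88 ± 0.13 (adjusted p = 0.232, limma). PARP9 stood at 5.84 and 6.91 on the sh50 arrays, at 6.15 and 6.66 on the sh52 arrays and at 5.83 and 6.28 on the shGFP arrays, a replicate difference of -0.68 ± 0.18 (adjusted p = 0.359, limma). IFI35, a leucine zipper protein that pairs with NMI, stood at 5.43 and 6.63 on the sh50 arrays, at 5.88 and 6.60 on the sh52 arrays and at 5.19 and 6.37 on the shGFP arrays. Its replicate difference was -1.03 ± 0.16, with a 95% interval of -1.44 to -0.62 (adjusted p = 0.241, limma). For all 3 genes the mean gap between replicates was larger than any gap between hairpin means. Against shGFP, both hairpins together gave 0.19 ± 0.41 for DTX3L, 0.33 ± 0.35 for PARP9 and 0.36 ± 0.49 for IFI35. That fit had no replicate block, so its errors include the replicate gap and are unlike those of the replicate differences. Counted by replicate number, a comparison chosen after seeing the data, all 4 differences from shGFP were above 0 for each of the 3. The smallest was 0.005 for PARP9. The share of named genes was 15.5%, but the 3 were picked from these same arrays, so no support is read from this. IFI6, IFITM3 and IFITM1 had mean replicate differences of 0.08 ± 0.43, -0.05 ± 0.24 and 0.06 ± 0.21, but these average gaps of opposite sign. For IFI6 the gaps were 0.02 within sh50, 1.22 within sh52 and -1.02 within shGFP. In the same order they were -0.57, 0.54 and -0.13 for IFITM3 and -0.44, 0.44 and 0.18 for IFITM1. When the array labelled sh52 replicate 1 was left out, so that the sh50 and shGFP pairs remained, the differences were -1.19 for IFI35, -0.88 for DTX3L and -0.76 for PARP9, and the median of the 38 genes was -0.22.

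**Figure D4:**
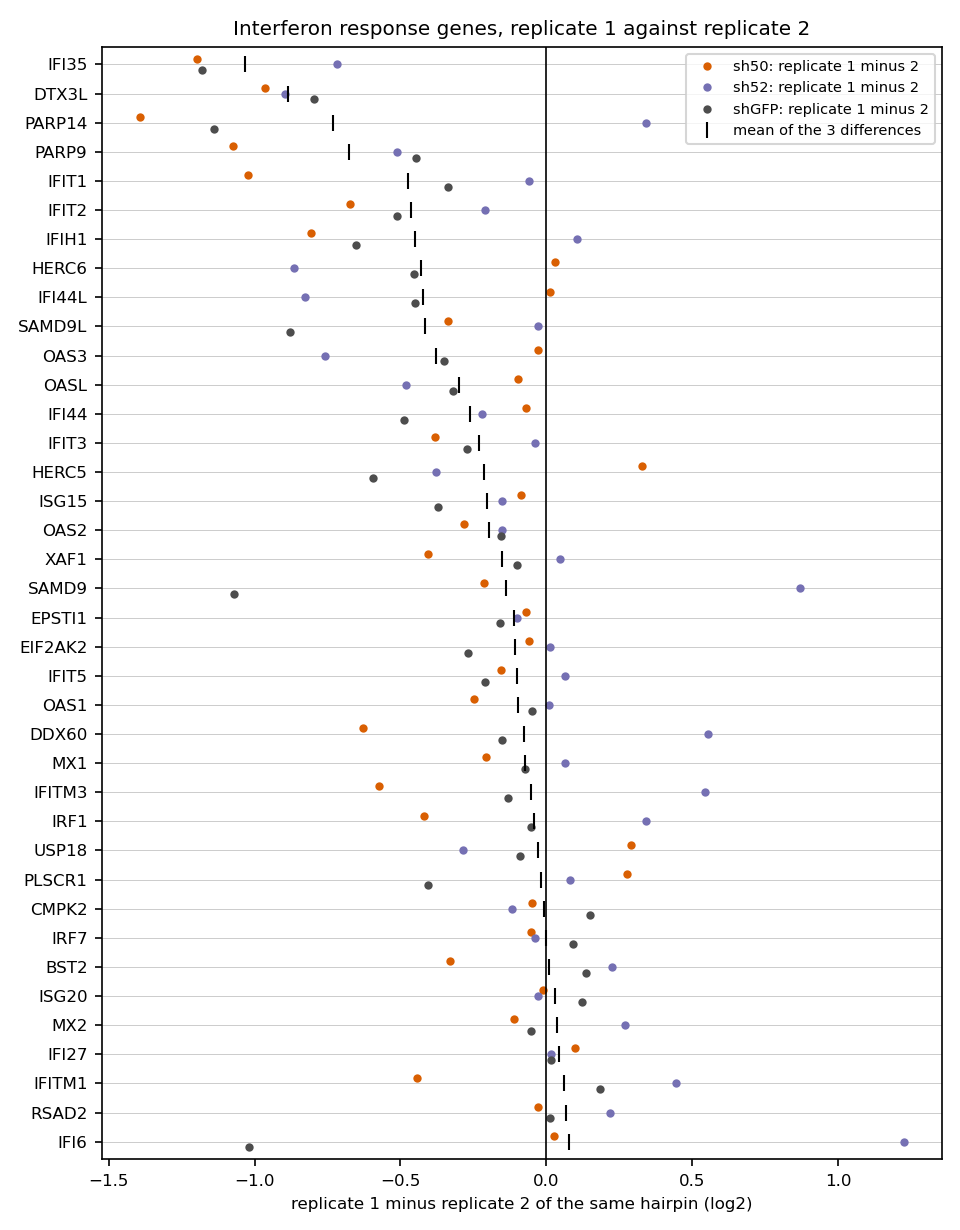
Log2 difference of replicate 1 minus replicate 2 within sh50, within sh52 and within shGFP for each of the 38 genes, with 1 point per hairpin and a bar for the mean of the 3. DTX3L, IFI35 and PARP9 are below 0 under all 3 hairpins, and 31 of the 38 means are below 0.

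The median level of the 38 genes was 5.22 and 5.86 on the sh50 arrays, 5.79 and 5.82 on the sh52 arrays, and 5.27 and 5.79 on the shGFP arrays. The array shGFP replicate 1 was the lowest of the 6 for 18 of 38 genes and sh50 replicate 1 for 9. The array labelled sh52 replicate 1 was the highest for 11, and sh50 replicate 2 for 12. The lowest value was thus often on replicate 1 of shGFP or of sh50. For 3 genes it was on the array labelled sh52 replicate 1, the one with the high SAT1 signal. Within sh52, replicate 1 was below replicate 2 in 20 of 38 genes, against 31 within sh50 and 31 within shGFP. The median replicate difference of the 38 genes was -0.18 within sh50, -0.03 within sh52 and -0.27 within shGFP. Over all clusters it was -0.07, 0.03 and 0.01. Shares of all clusters were not counted for these extremes and signs. The median of all clusters was lowest on sh50 replicate 1, at 3.92, and highest on the array labelled sh52 replicate 1, at 4.07. The part of array scale was not tested.

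The rest of the pathway was read from 4 further lists, described by counts alone. Interferon ligands and receptors had 26 of 27 genes measured. The 21 ligands lay between 2.42 and 4.10 on all arrays, and 1 of them passed the filter. Of the 26 genes, 20 were above 0 when sh50 and sh52 were averaged, against 51.6% of named genes, with a median of 0.07. For sh50 alone 15 were above 0 and for sh52 alone 21. The receptor subunits IL10RB, at 0.56 ± 0.18 (adjusted p = 0.485, limma), and IFNGR1, at 0.49 ± 0.17, were the 2 with an unadjusted p at or under 0.05. That is 2 of the 6 tested on the higher side, against 4.35% of all clusters tested, and 0 on the lower, against 4.83%. IL10RB stood at 9.98 and 10.38 on the sh50 arrays and at 10.45 and 10.24 on the sh52 arrays, against 9.58 and 9.82 on the shGFP arrays.

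Among 22 measured signalling genes and brakes, 14 were above 0 in the mean of both hairpins, with a median of 0.06. STAT3, a transcription factor downstream of cytokine receptors, stood at 12.28 and 12.80 on the sh50 arrays and at 12.03 and 12.01 on the sh52 arrays, against 11.36 and 11.13 on the shGFP arrays, a difference of 1.03 ± 0.19 (adjusted p = 0.456, limma). JAK1, the kinase shared by all interferon receptors, stood at 13.65 and 13.31 on the sh50 arrays and at 13.24 and 13.06 on the sh52 arrays, against 12.46 and 12.74 on the shGFP arrays, a difference of 0.72 ± 0.17. STAT4 differed by 0.53 ± 0.19. PTPN11, the phosphatase SHP2, stood at 13.38 and 12.01 on the sh50 arrays and at 14.19 and 14.20 on the sh52 arrays, against 14.55 and 14.34 on the shGFP arrays (adjusted p = 0.525 for the mean of both hairpins, limma). It was the 1 gene of the 15 tested at an unadjusted p of 0.05 or less on the lower side, against 4.83% of all clusters tested. On the higher side there were 3, against 4.35%. Most of the distance of PTPN11 from shGFP was in sh50.

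Of 23 measured sensors and adaptors 15 were above 0, with a median of 0.06. At an unadjusted p of 0.05 by limma there were 0 of the 18 tested either way, against 4.35% higher and 4.83% lower over all clusters tested. The largest estimates were IFI16, a DNA sensor, at 0.41 ± 0.26 and AIM2, another, at 0.32 ± 0.44, and both came from sh52. AIM2 stood at 6.40 and 6.07 on the sh50 arrays, below both shGFP arrays, and at 8.50 and 6.92 on the sh52 arrays, above both, against 6.77 and 6.54 on the shGFP arrays. IFI16 stood at 11.20 and 11.77 on the sh50 arrays and at 12.83 and 12.69 on the sh52 arrays, against 11.36 and 12.06 on the shGFP arrays. Of 59 other measured interferon-stimulated genes 39 were above 0, with a median of 0.11. In 7 of them all 4 hairpin arrays lay above both shGFP arrays, and in 0 below, against 9.24% and 9.25% of named genes. At an unadjusted p of 0.05 by limma, 6 of the 49 tested were higher, against 4.35% of all clusters tested. On the lower side there were 0, against 4.83%. The 4 with the smallest p were LGALS3BP, a secreted glycoprotein, at 1.18 ± 0.18 (adjusted p = 0.456, limma), IFITM2 at 1.28 ± 0.25, GBP2, a guanylate-binding protein, at 1.23 ± 0.31, and IFI30, a lysosomal thiol reductase, at 1.16 ± 0.36. IFITM2 stood at 8.78 and 9.25 on the sh50 arrays and at 9.58 and 8.90 on the sh52 arrays, against 7.80 and 7.90 on the shGFP arrays, the same order of groups as IFITM3. In replicate 1 against replicate 2 the same list had 46 of 59 genes below 0, and 26 lower under all 3 hairpins, or 44.1%, against 17.8% of named genes. The sensors had 16 of 23 below 0.

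**Figure D5:**
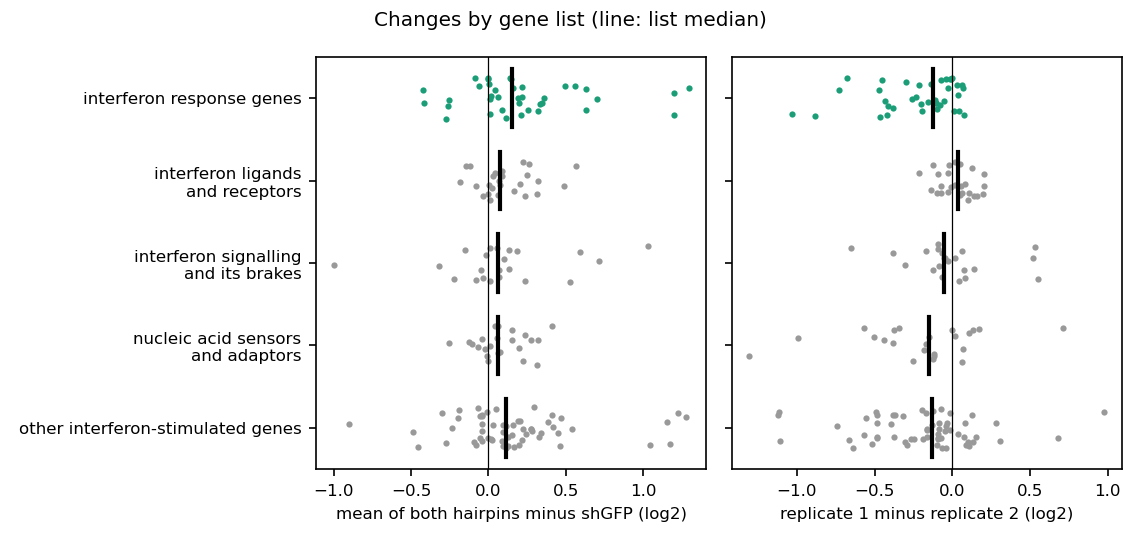
Log2 differences of the genes in each list, with both hairpins against shGFP in 1 panel and replicate 1 against replicate 2 in the other, and 1 point per gene with the list's median as a line. The 38 interferon response genes have medians of 0.15 and -0.12.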

How the data were processed

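Total RNA of 6 U87MG samples was measured on arrays, 2 for each of sh50, sh52 and shGFP. Per the labels, the deposited log2 values are RMA values that the authors derived in Expression Console from core exons. The submitters' processing notes also name Transcriptome Analysis Console. Its version, the probe annotation and the logarithm's base were not given in the sources used; base 2 was assumed, so folds hold only for that base. The values, from 1.64 to 19.93, were used as deposited, without further normalization. Of 70523 features 67528 were transcript clusters. The platform annotation, updated to current symbols, gave 1 symbol to 23781, several to 1543 and none to 42204, and for each gene the cluster with the highest mean was kept.

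Clusters at or above the median mean, 3.98, were tested (33764) with limma 3.58.1 in R 4.3.3, with group means over all 6 arrays, 3 residual degrees of freedom, and Benjamini-Hochberg adjustment over the 33764. The replicate comparison had the hairpin as a block and 2 residual degrees of freedom. With 2 arrays per group the number of arrays limits the precision. Members were named in full, with the value on every array, where the unadjusted p was at or under 0.05 in any of the 5 comparisons or where the gene was among the 8 with the largest difference each way in the mean of both hairpins. From each pathway list the genes with an unadjusted p at or under 0.05 were named, at most 4, or otherwise the 2 with the largest difference. The genes and lists were chosen with earlier results of these data known.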

Additional observations from a re-analysis of the deposited data

Results flagged for a closer look

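IFI27 was singled out because the hairpins lay on opposite sides of the control. Its values were 3.34 and 3.24 on the sh50 arrays, both above the shGFP arrays at 3.23 and 3.22, and 3.20 and 3.18 on the sh52 arrays, both below them. The mean of sh52 minus that of sh50 was -0.095 on the log2 scale. The gene was below the level at which clusters were tested, so the difference was not tested, and all 6 values lay within 0.15 of each other.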

How the results depend on the processing

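No gene of the 38 had an adjusted p at or under 0.05 by limma in any comparison under the settings tried, and 411 values recomputed for single named genes kept their direction and their side of the threshold, while 8 did not. Those 8 were sign changes on leaving out 1 array: for the mean of both hairpins against shGFP, DTX3L ranged from -0.20 to 0.59, IFI35 from -0.23 to 0.95, MX1 from -0.057 to 0.046 and PLSCR1 from -0.29 to 0.12. Over all clusters, leaving out 1 array gave 0 to 1 called for sh52 against shGFP and for sh52 against sh50, the 1 in each case without sh52 replicate 2. Replicate 1 against replicate 2 gave 0 to 18, with 18 when either sh52 array was left out. With the hairpin as a block, leaving out either array removes the sh52 pair from that comparison. The same comparison gave 4 without the hairpin block and 4 with single-symbol clusters only, where fewer clusters are tested, against 9 as reported. The cause was not tested.

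With the replicate number as a block, each hairpin comparison had 0 called, and IFITM3 and SAMD9L for the mean of both hairpins had an adjusted p of 0.335 by limma. The main hairpin fits did not read the numbers as pairs, since the labels do not say what they mark. Replicate differences over 33764 clusters correlated at 0.387 between sh50 and shGFP and at 0.345 between sh52 and shGFP. The replicate gaps were thus partly alike in those groups, and a fit without the block leaves them in its error. Between sh52 and sh50 the correlation was 0.0523. Counted by number, a comparison chosen after seeing the data, all 4 differences from shGFP were above 0 for 15 of 38 genes, against 13.5% of all clusters and 15.5% of named genes, and below 0 for 2, OAS3 and EIF2AK2, against 12.3% and 14.3%.

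Centring each array moved the share of higher clusters at an unadjusted p of 0.05 to 59.8%, against 49.2%, for sh50, and to 32.3%, against 46.7%, for sh52 against sh50. Leaving out 1 array moved the median difference of the 38 genes between -0.04 and 0.20 for sh50, between 0.09 and 0.30 for sh52, between 0.06 and 0.26 for the mean of both, between -0.01 and 0.35 for sh52 against sh50 and between -0.22 and -0.09 for replicate 1 against replicate 2. It was below 0 for sh50 without sh50 replicate 2 and for sh52 against sh50 without sh50 replicate 1. Signal near background limits the 6 untested genes.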

Other observations

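Of the genes outside the list, 3 with low replicate 1 values were chosen after their values were seen. TLR3, the endosomal receptor for double-stranded RNA, stood at 6.10 and 7.49 on the sh50 arrays, at 6.48 and 7.55 on the sh52 arrays and at 5.94 and 7.40 on the shGFP arrays, with replicate 1 given first. No replicate 1 array reached any replicate 2 array, and the difference was -1.30 ± 0.15 (SE; adjusted p = 0.144, limma). RIGI, the cytosolic RNA sensor, stood at 7.77 and 8.39 on the sh50 arrays, at 6.93 and 8.58 on the sh52 arrays and at 7.37 and 8.07 on the shGFP arrays, a difference of -0.99 ± 0.24. GBP1, a guanylate-binding protein, differed by -1.11 ± 0.19 (adjusted p = 0.272, limma). None of the 3 passed the adjusted threshold. The DNA sensor AIM2, at 0.71 ± 0.30, and SAT1 had the opposite sign, with replicate 1 higher under all 3 hairpins.

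GBP1 also had an estimate of 1.05 ± 0.53 for the mean of both hairpins against shGFP, with values of 7.83 and 8.64 on the sh50 arrays and 8.23 and 9.18 on the sh52 arrays, against 6.64 and 8.21 on the shGFP arrays, so the groups overlapped (adjusted p = 0.623, limma). Of the receptor of type I interferon, IFNAR1 differed by 0.20 ± 0.16 from shGFP when sh50 and sh52 were averaged. IFNAR2 had the hairpins on opposite sides of the control, at 7.31 and 7.20 on the sh50 arrays and at 7.99 and 7.63 on the sh52 arrays, against 7.60 and 7.47 on the shGFP arrays. IFNB1, the interferon that most non-immune cells make, lay between 2.61 and 3.01 on all 6 arrays and was not tested.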
